A study of Arabidopsis thaliana with 6 samples.

Results

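Small heat shock proteins are the smallest class of the plant heat shock proteins. They hold unfolding proteins in a soluble state without using ATP, until chaperones that do use ATP refold or clear them. Plants make separate families for the cytosol (classes I and II among them), mitochondria, chloroplasts, the endoplasmic reticulum and peroxisomes. Most of their genes are nearly silent in unstressed leaves and roots, accumulate transcripts in heat and under oxidative stress, and are switched on in maturing seeds. Heat shock transcription factors of the HSFA1 group start that response and HSFA2 sustains it.

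Transcripts of 10 Arabidopsis thaliana small heat shock protein genes are described here, out of 25388 loci with a usable probe on the array. They were chosen by locus: HSP23.6 (AT4G25200) and HSP23.5 (AT5G51440) of mitochondria, HSP22.0 (AT4G10250) of the endoplasmic reticulum, HSP18.2 (AT5G59720), HSP17.8 (AT1G07400), HSP17.4 (AT3G46230) and HSP17.6C (AT1G53540) of cytosolic class I, HSP17.6II (AT5G12020) and HSP17.6A (AT5G12030) of cytosolic class II, and HSP15.7 (AT5G37670) of peroxisomes. The choice was made with earlier results of these data known, so shares set against those of all loci describe the genes and test nothing. Each gene had 1 probe, so no second probe of the same gene could be set beside a value. The class I genes are close in sequence and the probe sequences were not used here, so hybridisation of 1 gene's transcript to another's probe was not tested. HSP17.6II and HSP17.6A are neighbouring protein-coding loci.

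Whole seedlings 14 days old received 200 Gy of gamma rays from a cobalt source at 50 Gy per hour, and the labels of the irradiated samples add 24 h. Of the 6 arrays, 3 held RNA of irradiated seedlings and 3 RNA of mock seedlings, with 1 array for each treatment of the mutant lines ago2a and ago2c and of wild type (WT). All lines were in the Columbia-0 ecotype and grew on agar medium with sucrose. Both mutants affect AGO2, an Argonaute protein that binds small RNAs, and the labels do not describe the lesions. Each RNA was pooled from 3 batches of whole seedlings, so the spread between batches within a condition cannot be seen. The 3 lines therefore stood in for replicates of irradiation. The p-values for irradiation measure how the difference between 1 irradiated and 1 mock array varies between lines.

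Values are given as relative signal, the background-corrected intensity of a probe in percent of the 75th percentile of its array. Differences are on the log2 scale, irradiated minus mock unless stated otherwise. Adjusted p-values come from limma with Benjamini-Hochberg adjustment over 20171 loci, at a threshold of 0.05. A probe was tested when the scanner software called it well above background on at least 2 arrays. That held for 9 of the 10 genes, and 7 of them were well above background on all 6 arrays.

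Between 70.3% and 73.2% of probe spots on an array were well above background and none was saturated, while median signals lay between 227 and 463. The AGO2 probe was well above background on both WT arrays and on none of the 4 ago2 arrays. All 6 leaf markers and all 8 root markers were well above background on every array. Of 6 seed markers none was well above background on every array and 2 were dim on all. The arrays of ago2a and WT shared slide 1 and those of ago2c were on slide 2, so slide and ago2c cannot be told apart. In loci with several probes, the irradiated ago2a array and both ago2c arrays also stood apart from the mock ago2a array and both WT arrays. Of 5615 such loci, between 10.1% and 17.7% had a ratio of their other probes to the brightest that differed over 2-fold between arrays of different groups. Between arrays of the same group it was 0.142% to 0.445%.

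**Figure D1:**
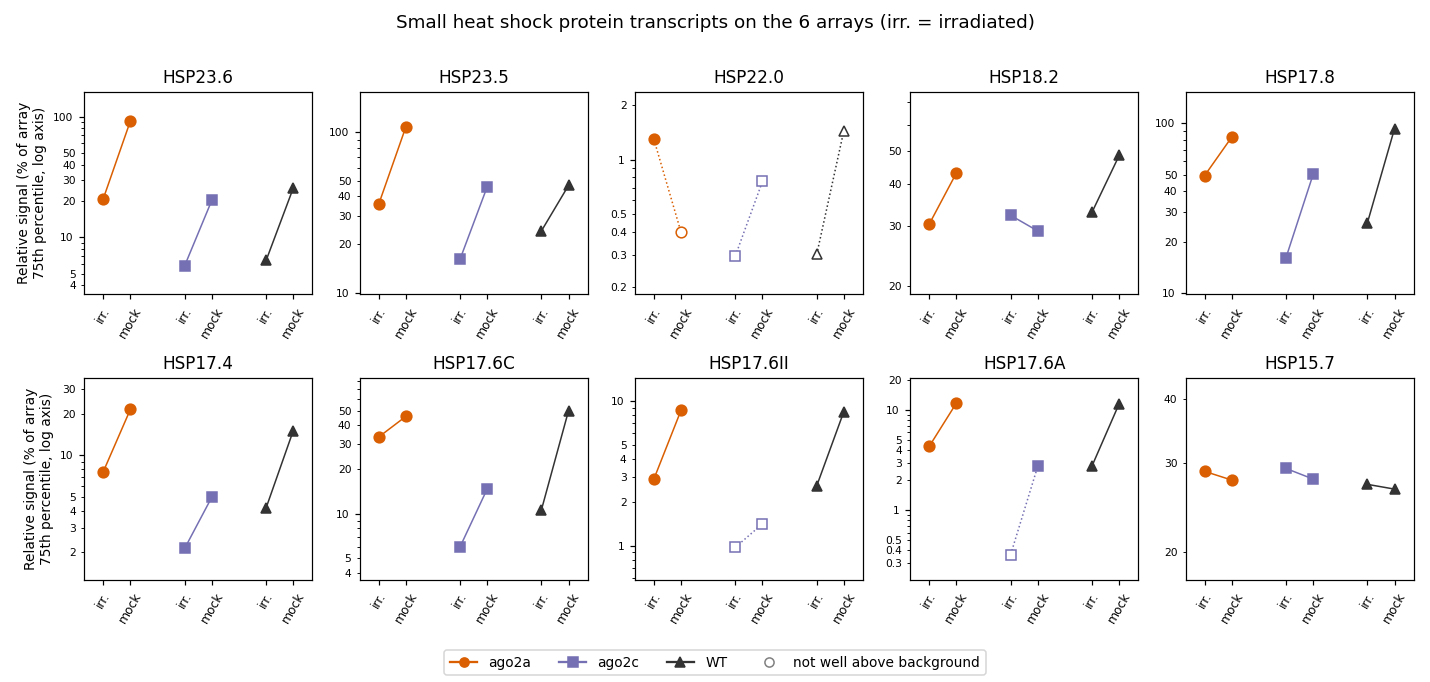
Relative signal (percent of the 75th percentile of the array, log axis, separate for each gene) of the 10 small heat shock protein genes on the 6 arrays. Each point is 1 array, open points were not well above background, lines join the irradiated and mock array of a line (dotted where a point is open). The irradiated signal lies below the mock signal in all 3 lines for 7 of the 9 tested genes, among them HSP17.6II with both ago2c points open, and HSP15.7 stays between 26.6% and 29.2%.

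Small heat shock protein transcripts were lower in irradiated than in mock seedlings of all 3 lines for 7 of the 9 tested genes by measured signal, against 18% of all loci tested. For 6 of these at least 1 array of every line was well above background, and for HSP17.6II neither ago2c array was. HSP23.6 of the mitochondria fell 3.94-fold and passed the test. The other 6 (HSP23.5, HSP17.8, HSP17.4, HSP17.6C, HSP17.6II and HSP17.6A) had mean differences between -1.28 and -2.14 and did not pass it. HSP18.2 and peroxisomal HSP15.7 had differences of mixed sign or near 0. HSP22.0 of the endoplasmic reticulum could not be tested.

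HSP23.6 is a mitochondrial matrix small heat shock protein. Its relative signal was 20.9% in irradiated and 92.3% in mock ago2a, 5.82% in irradiated and 20.3% in mock ago2c, and 6.42% in irradiated and 25.5% in mock WT. Within each line the irradiated array was therefore between 22.6% and 28.7% of its mock array. The groups overlapped across lines, because irradiated ago2a lay slightly above mock ago2c. The differences were -2.14 in ago2a, -1.80 in ago2c and -1.99 in WT. Their mean was -1.98 ± 0.11 (SE, 3 lines; adjusted p = 0.029, limma). The call was lost without ago2a (-1.90, adjusted p = 0.25), without ago2c (-2.07, adjusted p = 0.070) and with no filter on dim probes (adjusted p = 0.099). It held without WT (-1.97, adjusted p = 0.021).

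HSP23.5 encodes a second mitochondrial small heat shock protein. It had 35.5% in irradiated and 108% in mock ago2a, 16.2% in irradiated and 45.7% in mock ago2c, and 24.3% in irradiated and 46.7% in mock WT. All 3 irradiated arrays lay below all 3 mock arrays. The differences were -1.60 in ago2a, -1.50 in ago2c and -0.94 in WT, the smallest of the 3 being that of WT. The mean of -1.35 ± 0.16 (SE) did not pass (adjusted p = 0.12, limma). It passed without WT (-1.55, adjusted p = 0.022), and with normexp background correction, a model-based alternative (-1.21, adjusted p = 0.045). Of all pairs among the 7 genes bright on every array, the 2 mitochondrial genes had the most similar profiles over the 6 arrays (r = 0.976, 21 pairs). Both were highest in mock ago2a and second highest in mock WT.

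Of the 4 cytosolic class I genes, 1 had an irradiated signal at least 2-fold below mock in ago2a, against 7.39% of loci, 3 in ago2c, against 5.5%, and 3 in WT, against 1.57%. HSP17.4 had 7.64% in irradiated and 21.6% in mock ago2a, 2.13% in irradiated and 5.00% in mock ago2c, and 4.18% in irradiated and 15.1% in mock WT. Both ago2c arrays were low, so irradiated ago2a lay above mock ago2c. The differences were -1.50 in ago2a, -1.23 in ago2c and -1.85 in WT, with a mean of -1.53 ± 0.15 (SE; adjusted p = 0.086, limma). This mean passed without WT (-1.36, adjusted p = 0.026) and when only loci well above background on all 6 arrays were tested (adjusted p = 0.044).

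HSP17.8 showed the same order within lines. It had 49.2% in irradiated and 82.9% in mock ago2a, 16.2% in irradiated and 50.1% in mock ago2c, and 25.9% in irradiated and 93.0% in mock WT. The treatments did not overlap, and irradiated ago2a lay just below mock ago2c. The differences were -0.75 in ago2a, -1.63 in ago2c and -1.84 in WT, and the mean of -1.41 ± 0.25 (SE) had an adjusted p of 0.17 in limma.

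HSP17.6C varied most between lines in its response. Its relative signal was 33.2% in irradiated and 45.8% in mock ago2a, 5.97% in irradiated and 14.74% in mock ago2c, and 10.6% in irradiated and 50.1% in mock WT. Irradiated ago2a lay above mock ago2c, and the 2 other irradiated arrays were the lowest of all. The differences were -0.46 in ago2a, -1.31 in ago2c and -2.24 in WT. Their mean of -1.34 ± 0.36 (SE) had an adjusted p of 0.28 in limma.

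HSP18.2 is a class I gene whose promoter has long been used as a heat-inducible driver. Its relative signal was 30.4% in irradiated and 43.2% in mock ago2a, 32.3% in irradiated and 29.0% in mock ago2c, and 33.0% in irradiated and 48.6% in mock WT. The irradiated arrays were close to one another, and mock ago2c was the lowest array of the 6. The differences were -0.50 in ago2a, 0.15 in ago2c and -0.56 in WT, with a mean of -0.30 ± 0.18 (SE; adjusted p = 0.50, limma).

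The class II genes were dim, and dimmest in ago2c. HSP17.6II had 2.89% in irradiated and 8.65% in mock ago2a, and 2.59% in irradiated and 8.47% in mock WT. It was not well above background on either ago2c array (0.971% irradiated, 1.41% mock), so ago2c gives no fold. The differences were -1.58 in ago2a and -1.71 in WT, and the fit over all 6 arrays, which takes the dim ago2c signals as measured, gave -1.28 ± 0.27 (SE; adjusted p = 0.21, limma).

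HSP17.6A, its neighbour, had 4.36% in irradiated and 11.8% in mock ago2a, and 2.78% in irradiated and 11.6% in mock WT. In ago2c it was not well above background after irradiation (0.362%) and had 2.76% in mock seedlings, so it was at least 1.94-fold lower in irradiated ago2c. This bound takes the lowest signal well above background on the dim array as that array's level. The differences were -1.44 in ago2a and -2.07 in WT. The fit, which takes the dim signal as measured, gave -2.14 ± 0.31 (SE; adjusted p = 0.15, limma), and with normexp correction -1.01 (adjusted p = 0.046). The size of the HSP17.6A value therefore depends on how signals near background are treated.

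HSP22.0, whose protein enters the endoplasmic reticulum, was well above background only on the irradiated ago2a array, at 1.29%. The other arrays read 0.398% in mock ago2a, 0.295% in irradiated and 0.759% in mock ago2c, and 0.301% in irradiated and 1.45% in mock WT. None of these 5 signals was well above background, although the mock WT signal was above the bright one as a percentage. No response can be given for this gene.

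HSP15.7 encodes a small heat shock protein imported into peroxisomes. It had 28.8% in irradiated and 27.7% in mock ago2a, 29.2% in irradiated and 27.9% in mock ago2c, and 27.2% in irradiated and 26.6% in mock WT. The 6 arrays were nearly level, with every irradiated array slightly above its mock array. The differences were 0.06 in ago2a, 0.07 in ago2c and 0.03 in WT, and their mean was 0.05 ± 0.09 (SE; adjusted p = 0.79, limma).

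**Figure D2:**
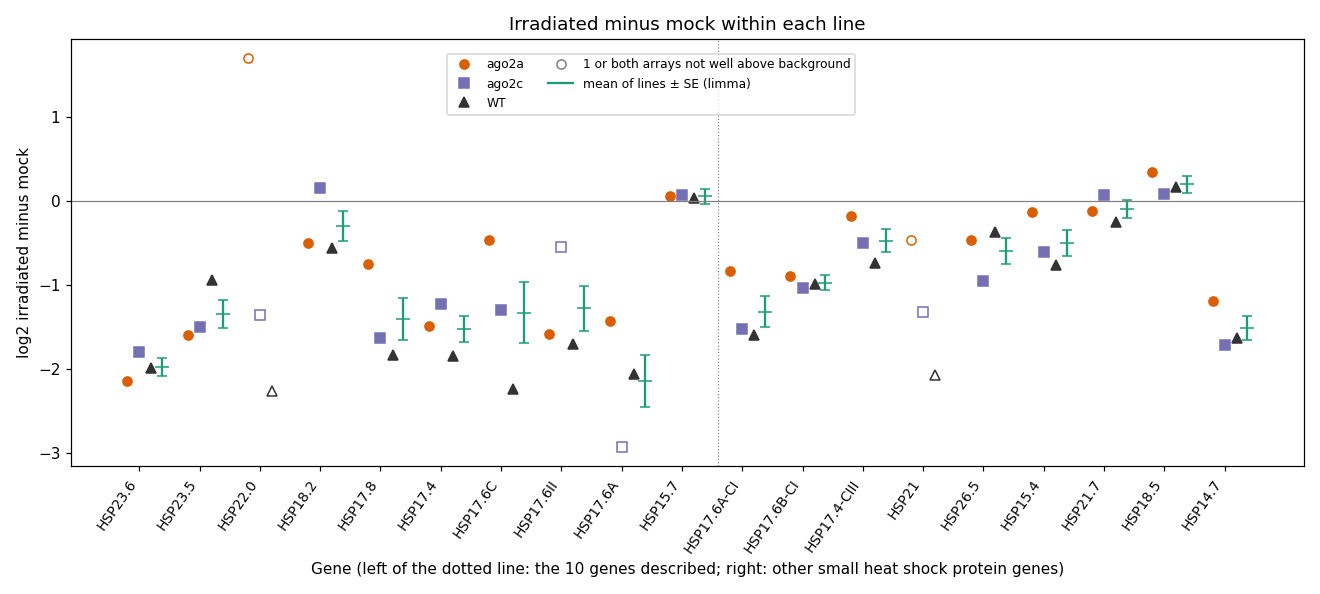
Difference between the irradiated and the mock array (log2) in each line for the 10 genes, left of the dotted line, and for 9 other small heat shock protein genes, right of it. Filled symbols are differences of 2 arrays well above background, open symbols involve at least 1 that was not, and green bars are the mean of the lines ± SE from limma for tested genes. HSP23.6 has the smallest error among the 7 genes lower in every line (0.11), and HSP17.6C the largest (0.36).

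In counts, 1 of the 9 tested genes was called lower, against 0.0149% of all loci tested, and 0 were called higher, against 0.223%. At an unadjusted p under 0.05, 7 of the 9 were lower, against 8.21% of loci. In 2 of the 9, HSP23.5 and HSP17.8, all irradiated arrays lay below all mock arrays, against 7.3% of loci. The count of called genes depended on single lines and settings. It was 3 without WT, where 948 of all loci were called lower, against 3 of all loci in the analysis reported. It was 0 without ago2a (0 of all loci) and 0 without ago2c (6). It was 3 with normexp correction (34), 2 with loci well above background on all 6 arrays (23), and 0 with no filter on dim probes (0).

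At least 2-fold lower signals, a count without a test, were found in ago2a for 5 of the 9 genes, against 7.39% of loci. In ago2c it was 6 of 9, against 5.5%, and in WT 6 of 9, against 1.57%. HSP23.6, HSP17.4 and HSP17.6A made up the 3 genes at least 2-fold lower in all 3 lines, against 0.258% of loci, and HSP17.6A counts here by the signal measured on a dim ago2c array. The median difference over the tested genes was -1.44 in ago2a, -1.31 in ago2c and -1.84 in WT, while over all loci it was 0.06 in ago2a, 0.01 in ago2c and -0.01 in WT. With HSP17.6A at its bound and HSP17.6II left out, the ago2c median was -1.27 over 8 genes. Scaling to the array median in place of the 75th percentile moved the median of all loci to 0.25 in ago2a and 0.08 in ago2c.

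Root markers were lower in the irradiated mutants. The median difference of the 8 markers was -1.62 in ago2a, -1.74 in ago2c and 0.15 in WT, and their summed relative signal was 4063% in irradiated and 6553% in mock ago2a, 2407% in irradiated and 4513% in mock ago2c, and 7390% in irradiated and 5242% in mock WT. The medians over the tested small heat shock protein genes were -1.44 in ago2a, -1.31 in ago2c and -1.84 in WT. For the 6 leaf markers the medians were 0.47 in ago2a, 0.12 in ago2c and -0.00 in WT. Both arrays of WT, and both of ago2c, lay in 1 array group each, while the ago2a arrays lay in different groups. The part of root markers and array groups in the response was not tested. In RNA of whole seedlings, fewer expressing cells and less RNA per cell cannot be told apart.

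For several genes the arrays of the mutant lines lay on opposite sides of WT. In mock seedlings, the mitochondrial genes were higher in ago2a than in WT, at 3.61-fold for HSP23.6 and 2.31-fold for HSP23.5. These were the 2 of 9 genes at least 2-fold higher in mock ago2a, against 1.22% of loci, and 0 were as much lower, against 0.441%. The 7 other tested genes had mock ago2a minus mock WT differences between -0.17 and 0.52.

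In mock ago2c, 4 of the 9 genes were at least 2-fold lower than in mock WT, against 3.81% of loci, and 0 were as much higher, against 0.773%. HSP17.4 was at 33.2% of mock WT, HSP17.6C at 29.4% and HSP17.6A at 23.7%. HSP17.6II was at least 4.92-fold lower, since its ago2c signal was not well above background. The mitochondrial genes were closer to WT, with HSP23.6 at 79.3% and HSP23.5 at 97.9%. The other class I genes were not 2-fold lower, with HSP17.8 at 53.8% of mock WT and HSP18.2 at 59.7%. These are differences between single arrays with no replicate check, and ago2c shares its slide with no other line. Mock ago2c also lay in another array group than mock WT, while mock ago2a lay in the same group as mock WT. The part of the array group in these differences was not tested.

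**Figure D3:**
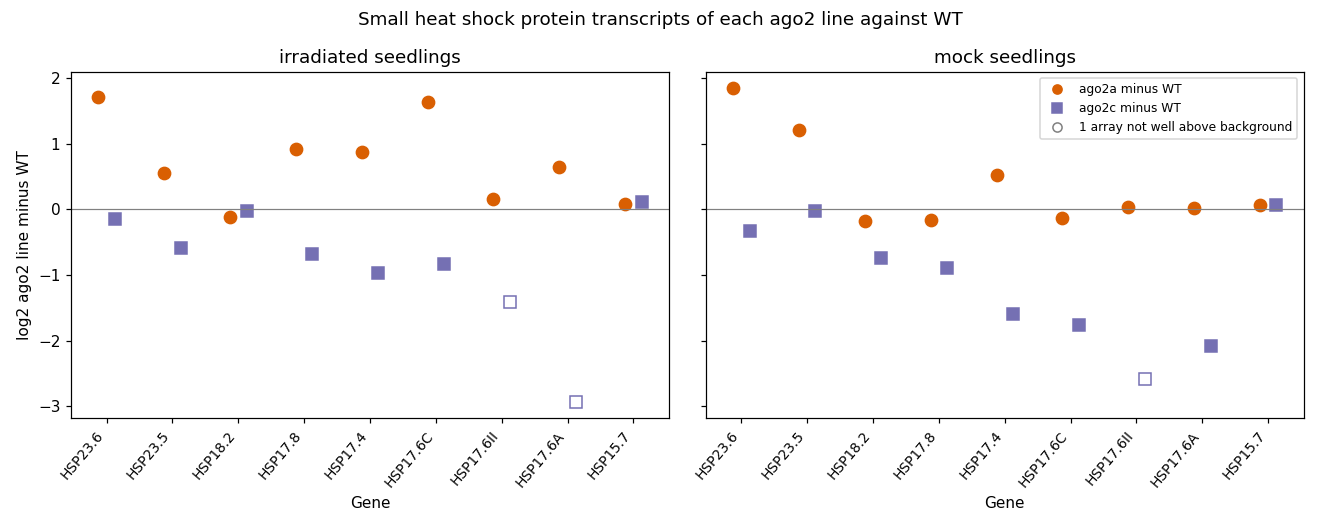
Difference between each mutant line and WT (log2) for the 9 tested genes in irradiated (left) and mock (right) seedlings. Each point is a difference between 2 single arrays, and open points involve an array not well above background. In both panels HSP23.6 lies well above 0 in ago2a (1.70 irradiated, 1.85 mock), and HSP15.7 lies near 0 in both lines.

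After irradiation HSP23.6 was 3.26-fold and HSP17.6C 3.12-fold higher in ago2a than in WT. HSP17.8 was 1.90-fold and HSP17.4 1.83-fold higher. In irradiated ago2c, HSP17.6A was at least 1.95-fold and HSP17.6II at least 1.82-fold lower than in WT, and HSP17.4 was at 51.0% of WT. HSP22.0, well above background only in irradiated ago2a, was at least 1.06-fold higher there than in irradiated WT. The irradiated arrays of both mutants lay in another array group than irradiated WT, and the part of this in the differences was not tested.

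Set directly against each other, ago2a was at least 2-fold above ago2c for 6 of the 9 genes in mock seedlings, against 5.77% of loci. In irradiated seedlings this held for 7 of the 9, against 3.68%. HSP23.6 was 4.56-fold higher in mock and 3.59-fold higher in irradiated ago2a than in ago2c, and HSP17.6C was 3.11-fold higher in mock and 5.56-fold higher in irradiated ago2a. HSP17.6II was at least 5.03-fold higher in mock ago2a, and HSP17.6A at least 3.06-fold higher in irradiated ago2a. The irradiated arrays of both mutants lay in the same array group and the mock arrays did not.

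The fit of 4 ago2 arrays against 2 WT arrays had no term for line. The 2 arrays of a line thus counted as independent replicates, which they are not. The fit called 0 of the 9 genes lower, against 0.00496% of loci, and 0 higher, against 0%. None had an unadjusted p under 0.05, and adjusted p-values lay between 0.64 and 0.90 (limma). The median difference over the 9 genes was -0.27, against 0.03 over all loci. Single values ranged from -1.09 ± 1.16 (SE) for HSP17.6A to 0.77 ± 0.80 for HSP23.6. The direction rested on ago2c: without ago2c the median was 0.38, and without ago2a it was -0.79. With the array group as a block, an alternative added after the data were seen, it was 0.49. Mock ago2a was the only ago2 array in the array group of the WT arrays. That value therefore sets mock ago2a alone against WT and is not an ago2 difference freed of the array group.

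The response to irradiation was also compared between the mutants and WT, as the ago2 difference minus the WT difference. Of the 9 genes, 0 were called lower and 0 higher in limma, against 0% of loci in each direction. The largest value was that of HSP17.6C at 1.35 ± 0.42 (SE) (adjusted p = 0.44, unadjusted p = 0.031). It passed only with normexp correction (1.21, adjusted p = 0.036), where 1 gene was called and 22 of all loci were called higher and 535 lower. Its adjusted p under the other settings lay between 0.062 and 0.64. For HSP23.6 the difference was 0.02 ± 0.27, and for HSP15.7 it was 0.03 ± 0.23. The median over the 9 genes was 0.38, against 0.06 over all loci, and it was 0.13 without ago2c and 0.21 without ago2a.

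Of 9 further small heat shock protein genes, 8 could be tested. None was called in either direction, against 0.0149% of all loci called lower and 0.223% called higher. They had a median difference of -0.55, 7 of 8 were below 0, against 9469 of 20171 loci, and in 5 of 8 all irradiated arrays lay below all mock arrays, against 7.3% of loci. HSP14.7 (AT5G47600) had 15.8% in irradiated and 36.0% in mock ago2a, 17.1% in irradiated and 55.9% in mock ago2c, and 16.8% in irradiated and 52.0% in mock WT. Its arrays split by treatment with no overlap, and its mean of -1.51 ± 0.14 (SE) came closest to the threshold together with the class I gene HSP17.6B-CI (AT2G29500) at -0.97 ± 0.09 (adjusted p = 0.078 for each, limma). The class I gene HSP17.6A-CI (AT1G59860) had -1.32 ± 0.19 (SE; adjusted p = 0.14, limma). HSP21 of the chloroplast was at least 1.69-fold lower in irradiated than in mock WT, the only array on which it was well above background.

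Of 21 heat shock factors listed, 19 were tested, with a median difference of -0.00. None was called, against 0.0149% of all loci called lower and 0.223% called higher. HSFA2, which sustains small heat shock protein transcription after heat, had 16.2% in irradiated and 44.0% in mock ago2a, 8.57% in irradiated and 39.9% in mock ago2c, and 9.99% in irradiated and 43.1% in mock WT. All 3 irradiated arrays lay far below the mock arrays, which were nearly equal in the 3 lines. The mean difference of -1.92 ± 0.19 (SE) did not pass (adjusted p = 0.086, limma).

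The primary activators had small differences, 0.03 ± 0.11 for HSFA1A, 0.11 ± 0.12 for HSFA1B and 0.03 ± 0.11 for HSFA1D (SE). HSFB1, a repressor induced by heat, had -0.06 ± 0.22, and its other probes gave -0.46 and -0.07. The second probe of HSFA1A gave 0.20, with 0.55 in WT, and that of HSFA1B gave -0.05. HSFA7A, a heat-inducible factor, had a mean of -0.62 ± 0.34 with -0.37 in ago2a, -1.53 in ago2c and 0.05 in WT. HSFA6A had 0.58 ± 0.23, with 0.55 in ago2a, 0.06 in ago2c and 1.11 in WT. Adjusted p-values of these 6 factors lay between 0.38 and 0.91 (limma).

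Of 22 large chaperones and other heat response genes, 21 were tested. None was called, against 0.0149% of all loci called lower and 0.223% called higher. Of the 21, 16 were below 0, against 9469 of 20171 loci, and the median was -0.27. HSP101, the disaggregase that works with small heat shock proteins, had 33.6% in irradiated and 49.0% in mock ago2a, 26.2% in irradiated and 57.4% in mock ago2c, and 25.3% in irradiated and 50.8% in mock WT. The treatments did not overlap, and the mean was -0.89 ± 0.15 (SE; adjusted p = 0.16, limma). HOP3, a co-chaperone of HSP70 and HSP90, had -0.84 ± 0.16 (SE; adjusted p = 0.18, limma), and its second probe gave -0.79. ROF2, an FKBP-type prolyl isomerase that modulates HSFA2, had -0.82 ± 0.12 (SE; adjusted p = 0.15, limma).

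All 12 genes of a mitochondrial stress list were tested. None was called, against 0.0149% of all loci called lower and 0.223% called higher. Of the 12, 10 were below 0, against 9469 of 20171 loci, and the median was -0.27. AOX1A, the alternative oxidase, had 1357% in irradiated and 2294% in mock ago2a, 733% in irradiated and 802% in mock ago2c, and 826% in irradiated and 1451% in mock WT. Both ago2c arrays were the lowest of the 6, and the mean was -0.57 ± 0.17 (SE; adjusted p = 0.31, limma). Its other probes gave -0.49 and -0.83. BCS1, an AAA ATPase, had -0.82 ± 0.17 (SE; adjusted p = 0.21, limma), and its second probe, dim on 1 array, gave -1.20. ANAC013, a regulator of mitochondrial retrograde signalling, had -0.50 ± 0.22 (SE; adjusted p = 0.42, limma). Mock ago2a exceeded mock WT for these 3 genes, which were picked from the 12 by their irradiation differences. The rest of the list is not described here for mock ago2a, and these are differences between single arrays.

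**Figure D4:**
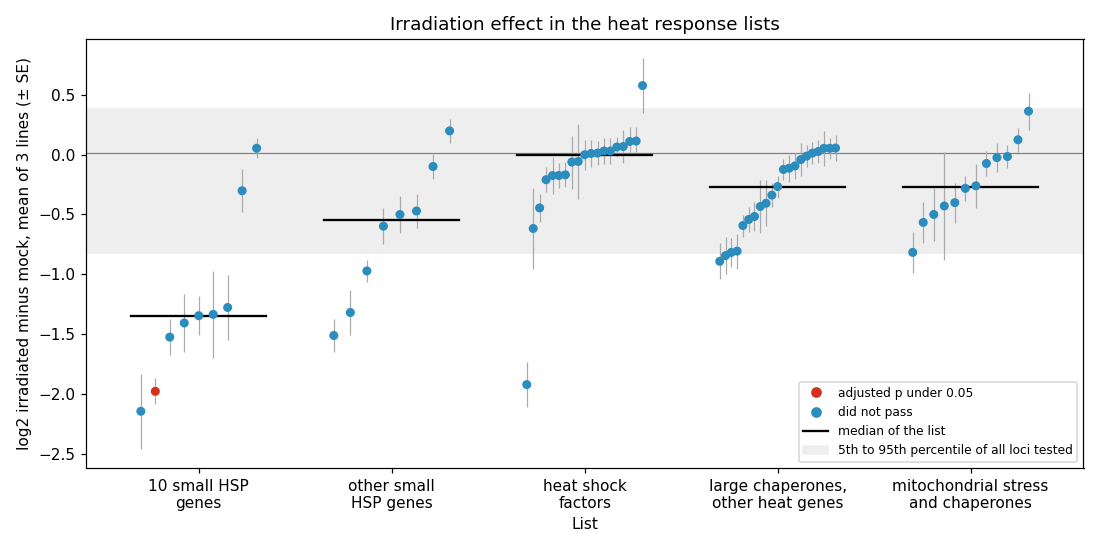
Mean difference between irradiated and mock arrays (log2, 3 lines) for each tested gene of 5 lists, with SE bars. Black lines are list medians, the grey band spans the 5th to 95th percentile of all loci tested, and the red point, HSP23.6, is the 1 gene past the threshold. The median of the 10-gene list (-1.35 over 9 tested) is the lowest of the 5, but the lists were chosen with earlier results of these data known. HSFA2 (-1.92) stands alone among the heat shock factors.

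The profiles of the 7 genes well above background on all 6 arrays were standardised and averaged, and 1852 other loci with an SD of at least 0.5 (log2) were ranked by Pearson correlation with that mean over the 6 arrays. As the points share arrays and lines, this is a description. The most similar were AT2G20720 (r = 0.992), UGT73C1 (r = 0.991), UGT74E2 (r = 0.991), AT1G15870 (r = 0.989) and AT3G58150 (r = 0.988). UGT73C1 and UGT74E2 encode glycosyltransferases, and UGT74E2 acts on an auxin. UGT74E2 had 1243% in irradiated and 2889% in mock ago2a, 247% in irradiated and 634% in mock ago2c, and 380% in irradiated and 1679% in mock WT. None of the 5 passed the irradiation test, with adjusted p-values between 0.14 and 0.23 (limma).

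Each of the 7 genes is part of the mean profile, so its correlation with that mean is partly built in. The correlation was 0.975 for HSP17.4, 0.965 for HSP23.6, 0.943 for HSP17.6C, 0.933 for HSP17.8 and 0.928 for HSP23.5. It was 0.687 for HSP18.2 and -0.377 for HSP15.7. The lowest pair was HSP18.2 with HSP15.7 (r = -0.641). HSP15.7 had the smallest range over the arrays.

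**Figure D5:**
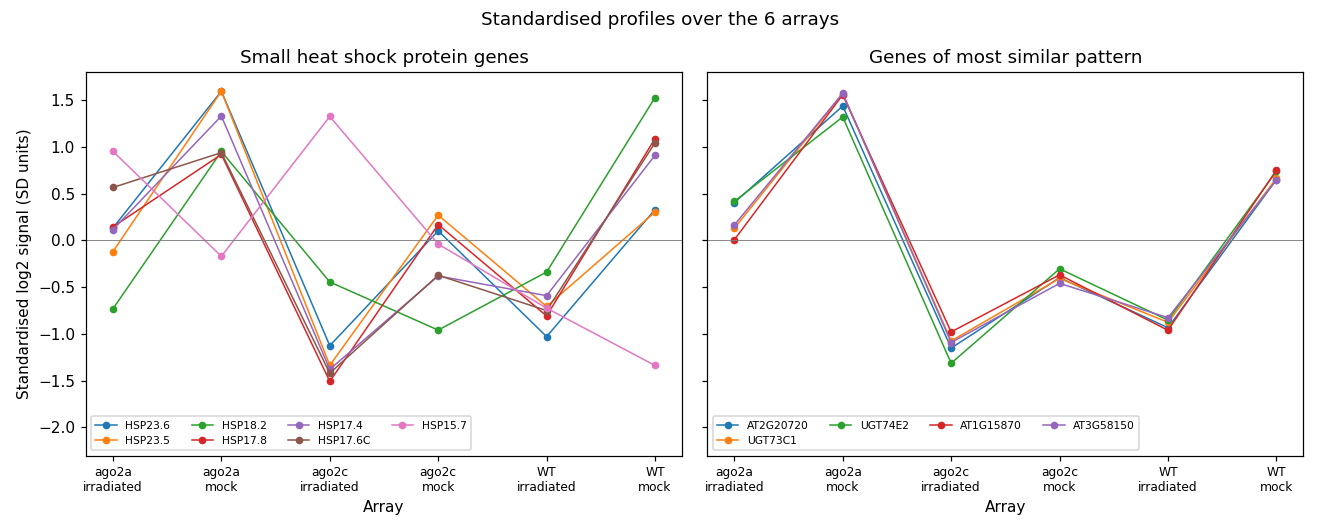
Standardised log2 signal (each gene centred and divided by its SD over the 6 arrays) of the 7 small heat shock protein genes bright on every array (left) and of the 5 loci of most similar pattern (right). Lines join the values of 1 gene and arrays are in a fixed order with no scale. The 5 loci peak in mock ago2a and are lowest in irradiated ago2c, like HSP17.4, and HSP15.7 departs from the others.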

How the data were processed

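The deposited files hold spot intensity values of Cy3-labelled seedling RNA on single-colour Agilent arrays. Per the file headers, the extraction software was Feature Extraction 11.0.1.1, and its background-corrected processed signal was used. The authors' deposited value table is a linear ratio, equal to the signal over the median of its array and then over a value per probe of unstated origin (column medians 0.878 to 1.06). It served as an alternative.

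Control spots and 53 probes with outlier flags were dropped. Values were log2 signals minus the 75th percentile of the array. Probes were assigned to loci by unversioned RefSeq accession in a table of another assembly (TAIR10.1) than the files name, so no coordinates are given. That table gives only the locus for HSP23.5, HSP17.8, HSP17.6C and HSP15.7, which carry their common names here. The brightest probe stood for a locus, and 20171 loci entered. All fits used lmFit and eBayes of limma 3.58.1 (R 4.3.3). Line was a block in the irradiation fit (2 residual degrees of freedom). Irradiation was a term in the genotype fit (3), and its interaction with genotype, beside line, gave the response difference (1). Each fit was tested on simulated data. There the share of false calls was somewhat above the threshold for the irradiation and genotype fits and far above it for the response difference, so calls of that fit are weak evidence. The simulation was a single run with independent noise on each array and left out the array groups. It therefore does not give the share of false calls in the real data.

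The genes and lists were chosen with earlier results of these data known. All 10 genes are named, from each other list the called genes or else the 3 largest tested differences, 6 regulators and chaperones in any case, and 5 loci of like pattern. The number of arrays limits the precision. Alternatives were background correction (normexp with offset 50, on median signals), scaling, probe filter and summary, eBayes options, slide or array group as a block, single treatments and leaving out each line.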

Additional observations from a re-analysis of the deposited data

How the results depend on the processing

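The irradiation median over the tested small heat shock protein genes kept its sign in every alternative run. The number of genes called lower was 1 in the analysis reported, 3 with normexp background correction, 0 with no filter on dim probes, 2 with loci well above background on all 6 arrays, 0 within slide 1, and between 0 and 3 when a line was left out. Over all loci, 3 were called lower in the analysis reported, 34 with normexp correction, 0 with no filter, 23 with loci bright on all 6 arrays, 6 within slide 1, and between 0 and 948 when a line was left out. Normexp correction gave medians per line of -0.88 in ago2a, -0.90 in ago2c and -1.24 in WT, and quantile normalization gave -1.13 in ago2a. The cause was not tested.

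For the ago2 lines against WT, the median moved to 0.49 with the array group as a block. This setting leaves the comparison to mock ago2a against WT, as all other ago2 arrays lay in the other group. When 1 mutant line was left out, values ranged from -0.24 to 1.78 for HSP23.6, -0.31 to 0.88 for HSP23.5, -0.79 to 0.38 for HSP17.8, -1.28 to 0.69 for HSP17.4, -1.30 to 0.76 for HSP17.6C, -2.00 to 0.10 for HSP17.6II and -2.51 to 0.33 for HSP17.6A. The lower value of each was without ago2a. Slide as a block, which leaves the comparison to slide 1, gave the upper value of each. With array group as a block they were 2.17 for HSP23.6, 1.21 for HSP23.5, 0.019 for HSP18.2, 0.13 for HSP17.8, 0.96 for HSP17.4, 0.49 for HSP17.6C, 0.59 for HSP17.6II and 0.28 for HSP17.6A. On irradiated arrays alone they were -0.019 for HSP23.5, 0.12 for HSP17.8 and 0.40 for HSP17.6C, and with normexp correction 0.025 for HSP17.4. No gene was called in any of these.

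For the response difference, 1 gene was called higher with normexp correction, where 22 of all loci were called higher and 535 lower. The median was 0.49 with quantile normalization, 0.52 with median scaling, 0.52 with the authors' values, and between 0.13 and 0.21 without 1 mutant line. The value of HSP23.6 was -0.048 with normexp correction, and that of HSP17.6A was 0.35 with normexp correction, 0.017 with quantile normalization, and 0.018 with median scaling and with the authors' values. Signals near background limit HSP22.0, HSP17.6II and HSP17.6A. The irradiation fit pairs the arrays by line, and the labels give no replicate numbers for another pairing.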
